A study of Oryctolagus cuniculus with 12 samples.

Results

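The EGR, NR4A and IER immediate early genes, together with MYC, were examined in rabbit conjunctiva after glaucoma filtration surgery. The members were chosen by name from these well-known families: EGR1, EGR2, EGR3, NR4A1, NR4A2, NR4A3, IER2, IER3, IER5 and MYC. Of these 10 genes, 9 had a row of that name among the 20566 genes of the table, all 9 passed the filter on low counts, and IER5 was not analysed here.

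Immediate early genes are transcribed within minutes of a stimulus, because the factors that switch them on are already present in the cell. Kinase cascades activate serum response factor, the ternary complex factors and CREB family members at their promoters, and no new protein has to be made first. Wounding, growth factors, stretch and cytokines are classical triggers, and many of the products are transcription factors that act on later genes.

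RNA was sequenced from 12 libraries of conjunctiva of female Japanese white rabbits. The control group (cont) held 3 libraries from the unoperated left eyes. The groups TL-3h, TL-3d and TL-14d each held 3 libraries from bleb conjunctiva of right eyes, taken 3 hours, 3 days or 14 days following trabeculectomy (TL), an operation that drains aqueous humor through a scleral flap to a bleb under the conjunctiva. All operated eyes had also received mitomycin C, which crosslinks DNA, and at the end of surgery betamethasone, a glucocorticoid, and an antibiotic ointment, and these agents and the operation cannot be told apart. The labels do not link control eyes to operated eyes or to animals, so the libraries were treated as unpaired and p-values measure the spread between these libraries.

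Libraries held 27111348 to 38591425 counts in total, and levels are in CPM, a share of the library total, with library sizes adjusted by TMM, which assumes that most genes do not change. The TMM factors were 0.768 to 0.783 in the TL-3h libraries and 1.03 to 1.13 in the other groups. Conjunctival epithelium markers were present in every group, with 7 of the 9 in the table and a summed level of 4689 to 9472 CPM in the controls. Among the controls, replicate 3 stood apart, with a fibroblast marker sum of 57681 CPM against 9746 and 27188 CPM in the other two, and TL-14d replicate 1 stood apart in that edgeR called 716 genes at 14 days without it and 0 with it. In whole tissue, fewer cells of a type and less RNA per cell cannot be told apart.

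At 3 hours, 7 of the 9 members were higher than in the controls at a q of 0.05 or less (edgeR quasi-likelihood test, Benjamini-Hochberg adjusted over 14835 genes), against 23.2% of all genes. The 3 comparisons with the controls share the same control libraries. The genes called higher were EGR2, EGR3, NR4A1, NR4A2, NR4A3, IER3 and MYC. In 8 of the 9 members all TL-3h libraries lay above all control libraries, as in 28.9% of all genes. The median log2 fold change of the members was 3.35, beside 0.02 over all genes tested. By 3 days 1 member, IER3, remained called higher, where 10.6% of all genes were called higher. At 14 days 0 members and 0% of all genes were called, with 2 members and 1538 genes at an unadjusted p under 0.05 in the same edgeR test. DESeq2 called 1 member and 367 genes at that time.

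**Figure D1:**
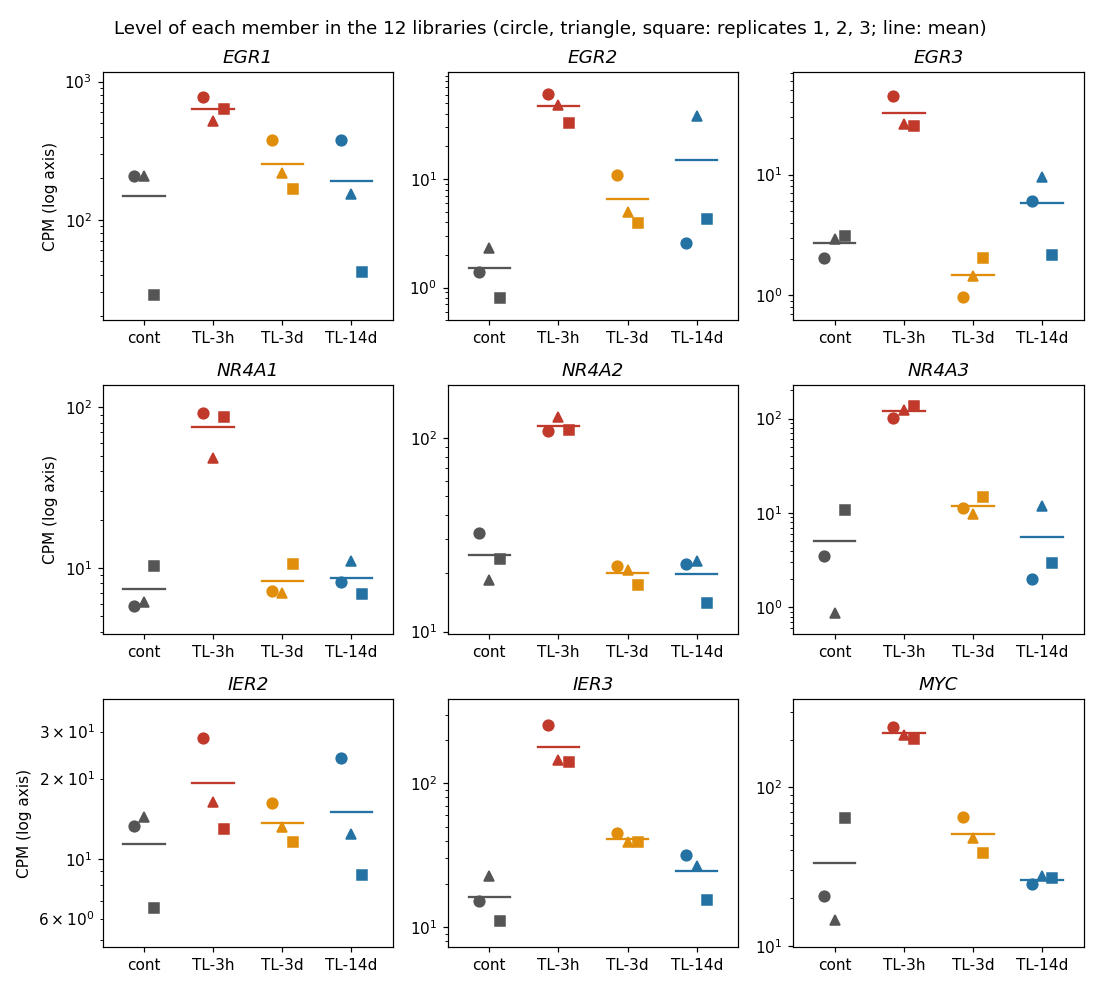
Level of each member in CPM on a log axis, 1 panel per gene, for cont, TL-3h, TL-3d and TL-14d. Circles, triangles and squares are replicates 1, 2 and 3 (3 libraries per group) and lines are means. The TL-3h points lie above all control points in every panel but IER2, and EGR2 replicate 2 of TL-14d lies near the TL-3h points at 38.1 CPM.

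The EGR family encodes zinc finger transcription factors that bind GC-rich sites, and EGR1 is the member best known from wounded epithelium and stroma. EGR1 (gene 100009491) lies on chromosome 3 of OryCun2.0, positions 20738615 to 20742487, plus strand. In the control libraries its level was 207.6, 206.7 and 28.7 CPM in replicates 1, 2 and 3. In TL-3h it was 767, 515 and 631 CPM. The TL-3h libraries were all higher than the controls, and control replicate 3 was far below the other controls. Its log2 fold change at 3 hours was 2.11 (SE 0.82, edgeR q = 0.0581), which missed the threshold. The q was 0.038 without TL-14d replicate 1, 0.0323 without TL-14d replicate 3 and 0.0169 by DESeq2. In these fits the log2 fold change was 2.06 to 2.11. Without control replicate 3, the low control, it was 1.57 and not called (q = 0.112), and without that library and TL-14d replicate 1 together it was 1.57 (q = 0.0421). With library size only it was 1.58 (q = 0.133), and with the replicate number as a block in the fit it was 2.54 (q = 0.0128).

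EGR1 in TL-3d was 378, 217 and 167 CPM, and in TL-14d it was 376, 153 and 42.2 CPM. Both groups overlapped the controls, and TL-14d had the widest spread of EGR1, with its highest library 8.91 times its lowest. At 3 days it differed from the controls by a log2 fold change of 0.78 (SE 0.79, q = 0.502), and at 14 days by 0.37 (SE 0.79, q = 0.892), which turned to -0.60 without TL-14d replicate 1 and -0.13 without control replicate 3. All TL-3d libraries lay below all TL-3h libraries, although the difference of -1.33 on the log2 scale was not called (q = 0.215). With only the 6 libraries compared it was -1.30 and called (q = 0.024).

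EGR2, known from myelinating Schwann cells and from lymphocytes and myeloid cells, is gene 100351345 on chromosome 18, positions 23380794 to 23387584, plus strand. Its control level was 1.40, 2.33 and 0.803 CPM, far above the floor of 3 counts, which was 0.0712 to 0.124 CPM. At 3 hours it was 60.3, 48.0 and 32.7 CPM. The groups did not overlap, and the mean was 31.1 times the control mean, or 25.2 times without control replicate 3. EGR2 rose by 4.96 on the log2 scale (SE 1.03, q = 0.00323).

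At 3 days EGR2 was 10.8, 4.99 and 3.90 CPM, still above all controls, with a log2 fold change of 2.12 that was not called (SE 0.92, q = 0.126). The q was 0.0214 when TL-14d replicate 2 was left out of the fit, 0.0483 with only the 6 libraries compared and 0.046 by DESeq2. At 14 days EGR2 was 2.56, 38.1 and 4.26 CPM. Replicate 2 was as high as the TL-3h libraries, and replicates 1 and 3 were nearer to the controls. EGR2 was the 1 of 9 members with all TL-14d libraries above all controls, beside 6.03% of all genes. Its log2 fold change at 14 days was 3.31 (SE 0.96, q = 0.346). It was called without TL-14d replicate 1 (q = 0.0403) and by DESeq2 (q = 0.00906), while without TL-14d replicate 2 it was 1.17 (q = 0.978).

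EGR3, a relative that binds the same type of site, is gene 100355500 on unplaced sequence, and it is listed at 272111203 to 272116478 of the file's joined sequence of unplaced pieces. Control libraries had 2.02, 2.95 and 3.11 CPM and TL-3h libraries had 45.1, 26.3 and 25.5 CPM. The TL-3h values were all several times the highest control. EGR3 rose by 3.58 on the log2 scale (SE 0.53, q = 0.000483).

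EGR3 was 0.974, 1.45 and 2.02 CPM in TL-3d and 5.98, 9.45 and 2.15 CPM in TL-14d. All TL-3d libraries were below all TL-14d libraries, and the TL-3d range only just reached the lowest control. Against the controls its log2 fold change was -0.86 at 3 days (SE 0.49, q = 0.23) and 1.12 at 14 days (SE 0.49, q = 0.475). From 3 days to 14 days the difference was 1.99 (SE 0.50, q = 0.0696), and DESeq2 called it (q = 0.00261). Among the members, 1 of 9 had all TL-14d libraries above all TL-3d libraries, as did 13.4% of all genes.

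The NR4A family encodes orphan nuclear receptors that lack a classical ligand pocket and act mainly through their level. NR4A1 (gene 100349994) lies on chromosome 4, positions 36193799 to 36207535, plus strand. Its level was 5.79, 6.15 and 10.3 CPM in the controls and 91.8, 48.4 and 86.6 CPM in TL-3h. The lowest TL-3h library was several times the highest control. NR4A1 rose by 3.35 on the log2 scale (SE 0.35, q = 8.38e-05), the smallest q among the members at 3 hours. In TL-3d it was 7.15, 6.93 and 10.6 CPM, and in TL-14d 8.17, 10.98 and 6.84 CPM. Both groups overlapped the controls, with log2 fold changes of 0.15 (SE 0.32, q = 0.759), or -0.073 without TL-3d replicate 3, and 0.23 (SE 0.32, q = 0.834).

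NR4A2 (gene 100352580) lies on chromosome 7, positions 95178315 to 95196096, minus strand, and is otherwise best known from dopaminergic neurons. Its control level was 32.3, 18.5 and 23.8 CPM and its TL-3h level was 109, 129 and 110 CPM. The TL-3h libraries were close to each other and all above the controls. NR4A2 rose by 2.22 on the log2 scale (SE 0.24, q = 0.000107). At 3 days NR4A2 was 21.8, 20.9 and 17.4 CPM and at 14 days 22.3, 23.2 and 14.1 CPM. The ranges of both overlapped the control range, and the log2 fold changes were -0.31 (SE 0.23, q = 0.357) and -0.32 (SE 0.23, q = 0.648).

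NR4A3 (gene 100344785) lies on chromosome 1, positions 13351901 to 13392782, minus strand. Its level was 3.54, 0.875 and 10.8 CPM in the controls and 102, 122 and 134 CPM in TL-3h. The controls differed among themselves by 12.3 times between lowest and highest, the widest control spread of the members, and every TL-3h library was above them. NR4A3 rose by 4.56 on the log2 scale (SE 0.91, q = 0.00263), and the mean was 23.6 times the control mean. Without control replicate 3 the log2 fold change was 5.69 (q = 0.00147) and the ratio of means 54.1. In TL-3d the level was 11.4, 9.70 and 14.8 CPM, with a log2 fold change of 1.24 (SE 0.80, q = 0.289), or 2.41 (q = 0.0725) without control replicate 3 and 2.41 (q = 0.0376) without TL-14d replicate 1 as well. In TL-14d it was 1.98, 11.9 and 2.93 CPM, with a log2 fold change of 0.15 (SE 0.80, q = 0.96), which was -1.04 without TL-14d replicate 2 and 1.33 without control replicate 3. The TL-3d values overlapped the controls through control replicate 3, and replicate 2 was the high library of TL-14d, as it was for EGR2 and EGR3.

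MYC encodes a transcription factor that, paired with MAX, promotes growth and ribosome production. It is gene 100327265 on chromosome 3, positions 143523861 to 143528653, plus strand. Its level was 20.7, 14.6 and 64.6 CPM in the controls and 242, 214 and 203 CPM in TL-3h. Control replicate 3 was the high control, and all TL-3h libraries lay above it. MYC rose by 2.72 on the log2 scale (SE 0.48, q = 0.00129), and by 3.58 (q = 5.76e-05) without control replicate 3.

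In TL-3d MYC was 64.8, 47.9 and 38.7 CPM, and in TL-14d it was 24.4, 27.5 and 26.7 CPM. The TL-3d values were above control replicates 1 and 2 and, but for replicate 1, below control replicate 3. The log2 fold change at 3 days was 0.60 (SE 0.45, q = 0.361), and without control replicate 3 it was 1.49 (q = 0.016). All TL-14d libraries lay below all TL-3d libraries, with a difference of -0.95 (SE 0.45, q = 0.249). Without control replicate 3 in the fit its q was 0.0463. MYC and IER3 were the 2 of 9 members with no overlap in that direction, beside 14.0% of all genes.

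IER2 encodes a small nuclear protein and IER3 a small stress-induced protein linked to cell survival. IER2 (gene 100350466) is on unplaced sequence, listed at 452727668 to 452730399, minus strand. Its level was 13.3, 14.4 and 6.55 CPM in the controls and 28.4, 16.3 and 13.0 CPM in TL-3h. The groups overlapped, since TL-3h replicate 3 lay between the controls. The log2 fold change was 0.75 (SE 0.43, q = 0.185), the smallest of the members at 3 hours. With the replicate number as a block in the fit it was 0.73 and called (q = 0.0411), beside 46.8% of all genes. IER2 was 16.2, 13.1 and 11.6 CPM in TL-3d and 23.8, 12.4 and 8.76 CPM in TL-14d. Both groups overlapped the controls, with log2 fold changes of 0.25 (SE 0.43, q = 0.702) and 0.39 (SE 0.43, q = 0.776). These turned to -0.0409 at 3 days without control replicate 3 and -0.11 at 14 days without TL-14d replicate 1.

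IER3 (gene 100359212) lies on chromosome 12, positions 22766159 to 22767334, minus strand. Its level was 15.3, 22.6 and 10.96 CPM in the controls and 255, 145 and 140 CPM in TL-3h. The lowest TL-3h library was several times the highest control. IER3 rose by 3.47 on the log2 scale (SE 0.37, q = 9.27e-05). In TL-3d it was 45.3, 38.8 and 39.3 CPM, all above the controls and close to each other. The log2 fold change at 3 days was 1.34 (SE 0.34, q = 0.0279). IER3 and EGR2 were the 2 of 9 members with all TL-3d libraries above all controls, where 23.8% of all genes had that order. The IER3 call at 3 days was lost without any of control replicates 1, 2 or 3 or TL-3d replicates 1 or 2, where the q reached 0.0909. In those fits the log2 fold change was 1.11 to 1.65. In TL-14d the level was 31.9, 26.7 and 15.5 CPM, and it overlapped the controls, with a log2 fold change of 0.60 (SE 0.34, q = 0.567).

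**Figure D2:**
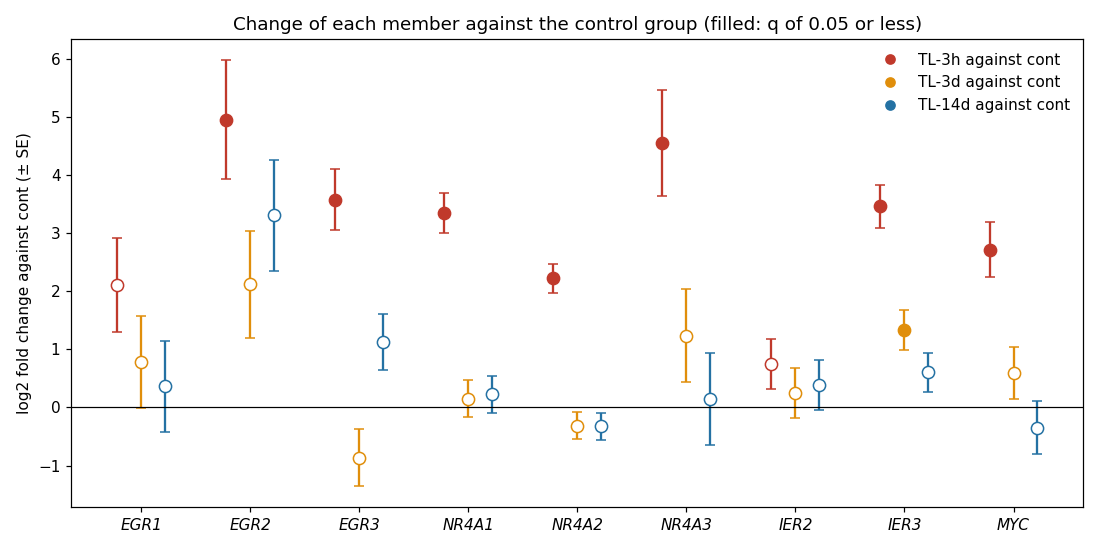
Log2 fold change of each member against cont (vertical axis, bars ± SE from the edgeR fit, 3 libraries per group) at 3 hours (red), 3 days (orange) and 14 days (blue). Filled points have a q of 0.05 or less. There are 7 filled points at 3 hours, from 2.22 for NR4A2 to 4.96 for EGR2, and 1 at 3 days, IER3 at 1.34.

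The fall from 3 hours to 3 days was tested directly as TL-3d against TL-3h. Of the 9 members, 7 were called lower, where 19.0% of all genes were, and 8 had all TL-3d libraries below all TL-3h libraries, where 28.5% of all genes did. EGR3 fell by 4.44 on the log2 scale (SE 0.55, q = 0.000245), more than any other member. NR4A3 fell by 3.32 (SE 0.86, q = 0.0126) and NR4A1 by 3.20 (SE 0.34, q = 0.000117). EGR2 fell by 2.84 (SE 0.93, q = 0.0352) and NR4A2 by 2.53 (SE 0.25, q = 6.51e-05). IER3 fell by 2.13 (SE 0.35, q = 0.00113) and MYC by 2.12 (SE 0.47, q = 0.0057). For IER2 the difference was -0.49 (SE 0.43, q = 0.391). The EGR2 call was lost with scaling by library size only and without any of TL-3d replicates 2 and 3 and TL-3h replicates 1, 2 and 3, where the q reached 0.113. The NR4A3 call was lost without TL-3d replicate 2 (q = 0.0532). From 3 days to 14 days 0 members were called by edgeR, where 2.24% of all genes were. At an unadjusted p under 0.05 in the same test there were 1 member and 3350 genes (22.6%). DESeq2 called 1 member, beside 12.5% of all genes.

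Several cell type marker lists moved with the 3 hour comparison. The 6 neutrophil markers in the table summed to 3.61 to 88.5 CPM in the controls and 1049 to 2838 CPM in TL-3h. The 5 fibroblast markers summed to 9746 to 57681 CPM in the controls and 80352 to 95825 CPM in TL-3h. The 5 endothelium markers summed to 63.7 to 275 CPM against 606 to 1211 CPM, a sum carried by PECAM1 (mean 55.8 against 716 CPM), while KDR (32.8 against 18.6 CPM) and TEK (8.09 against 6.36 CPM) had lower means in TL-3h. The 6 monocyte and macrophage markers summed to 74.7 to 620 CPM against 651 to 1000 CPM. These 4 lists did not overlap between the groups and none of their markers was at 0 in all libraries of a group, although MPO, a neutrophil marker, was near 0 in both (mean 0.00836 and 0.0128 CPM). The other 6 lists (epithelium, goblet cell, T cell, B and plasma cell, skeletal muscle and adipocyte) overlapped. At 3 days the neutrophil sum was 121 to 534 CPM and the monocyte and macrophage sum 1304 to 2112 CPM and the endothelium sum 294 to 548 CPM, all above the controls. Against TL-3h, the TL-3d sums of neutrophil, endothelium, fibroblast and adipocyte markers were lower without overlap. The monocyte and macrophage sum was higher without overlap. The fibroblast sum was 987 to 45154 CPM in TL-3d. The endothelium sum fell through PECAM1 (mean 716 CPM in TL-3h against 196 CPM in TL-3d) and CDH5 (82 against 31.6 CPM). VWF (77.8 against 119 CPM), KDR (18.6 against 21.1 CPM) and TEK (6.36 against 11.5 CPM) had higher means in TL-3d. The adipocyte sum was 27.3 to 152 CPM in TL-3d against 301 to 421 CPM in TL-3h. That fall lay mostly in LPL (mean 259 CPM in TL-3h against 6.21 CPM in TL-3d). At 14 days the neutrophil sum was 2.96 to 54.9 CPM. The part of these cells in the members' changes at 3 hours, and between 3 hours and 3 days, was not tested.

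Levels can be compared between genes only per length, so the deposited FPKM values (a level divided by transcript length and depth) were used for the order. In the controls the mean FPKM was 44.1 for EGR1, 16.3 for IER3, 13.5 for MYC, 7.89 for IER2, 5.86 for NR4A2, 2.72 for NR4A1, 0.759 for NR4A3, 0.666 for EGR3 and 0.450 for EGR2. The library ranges of neighbours overlapped from EGR1 down to NR4A2, and again among NR4A3, EGR3 and EGR2. NR4A2 and NR4A1, and NR4A1 and NR4A3, did not overlap.

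In TL-3h EGR1 (mean 135 FPKM) and IER3 (129 FPKM) led with overlapping ranges, and MYC (65.6 FPKM) followed without overlap. NR4A1 (20.2 FPKM) and NR4A2 (19.7 FPKM) overlapped, while NR4A2 and NR4A3 (13.2 FPKM) did not, and NR4A3, EGR2 (9.97), IER2 (9.46) and EGR3 (5.76) each overlapped the next in that order. IER2 thus held rank 4 by mean FPKM in the controls, at 7.89 FPKM, and rank 8 in TL-3h, at 9.46 FPKM. In TL-3d the order was EGR1 (75.5 FPKM), IER3 (41.3), MYC (21.2), IER2 (9.42), NR4A2 (4.77), NR4A1 (3.06), EGR2 (1.96), NR4A3 (1.85) and EGR3 (0.368), and neighbours overlapped only from NR4A1 to EGR2 to NR4A3. In TL-14d EGR1 (56.7 FPKM) again led, with a range of 12.4 to 112 FPKM that overlapped IER3 (24.9 FPKM), and NR4A3 (0.873 FPKM) was last, with a range that overlapped that of EGR3 (1.48 FPKM).

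**Figure D3:**
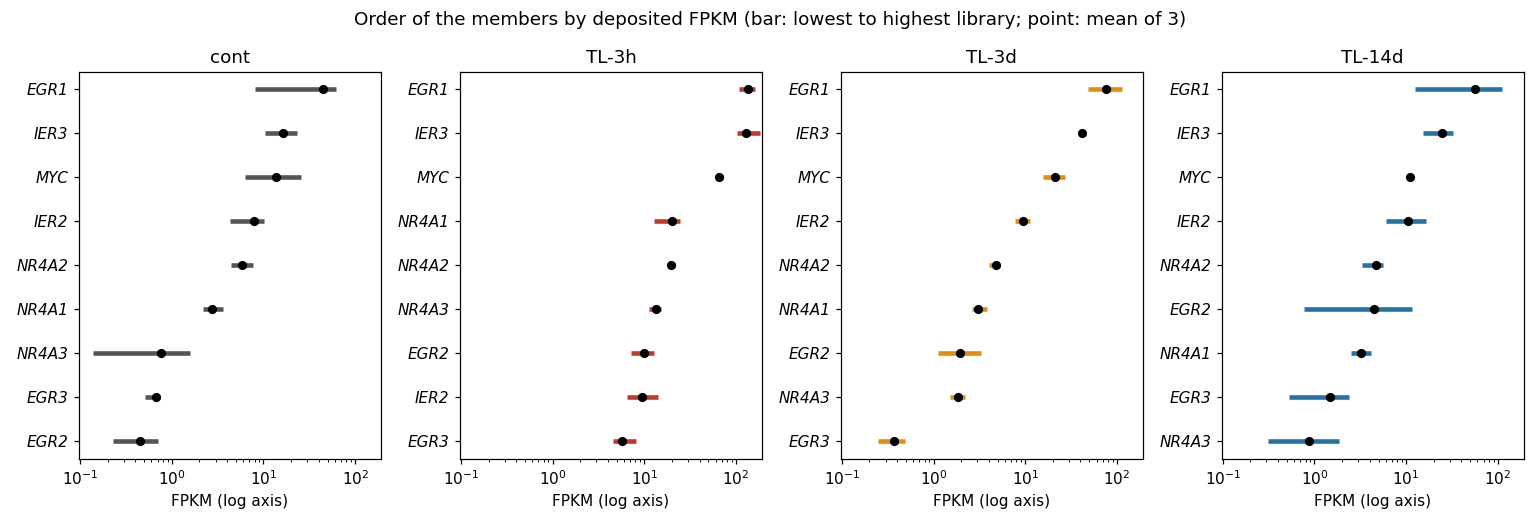
Members in order of mean deposited FPKM within each group, on a log axis. Bars span the lowest to the highest of 3 libraries and points are means. EGR1, IER3 and MYC hold ranks 1, 2 and 3 in every group, and IER2 holds rank 4 in cont and rank 8 in TL-3h.

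The members did not vary in step within a group. In all 4 groups EGR3 and NR4A1 had the same highest library, and so did IER2 and IER3, while EGR1 and NR4A3 shared it in 0 groups. In the controls EGR1, IER2, IER3 and EGR2 were lowest in replicate 3, whereas EGR3, NR4A1, NR4A3 and MYC were highest there. In TL-14d EGR2, EGR3, NR4A1, NR4A2, NR4A3 and MYC were highest in replicate 2, and EGR1, IER2 and IER3 were highest in replicate 1. With 3 libraries a group these orders are descriptions.

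The deposited table also splits each gene's estimated count between annotated transcripts, a split that is inferred where transcripts share sequence. EGR2 has 2 annotated transcripts that start at positions 23380794 and 23383116 of chromosome 18 and end at the same position. The transcript with the downstream start took 49.9%, 31.8% and 0.000633% of the EGR2 count in control replicates 1, 2 and 3, of 59, 93 and 32 counts in all. In TL-3h it took 77.5%, 86.8% and 50.7%. All TL-3h shares were above the control shares, replicate 3 by a small margin. In TL-3d the share was 70.0%, 53.3% and 18.8%, and in TL-14d it was 39.0%, 55.8% and 25.9%. These 2 groups overlapped both others. The split was not tested, since its error is unknown.

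**Figure D4:**
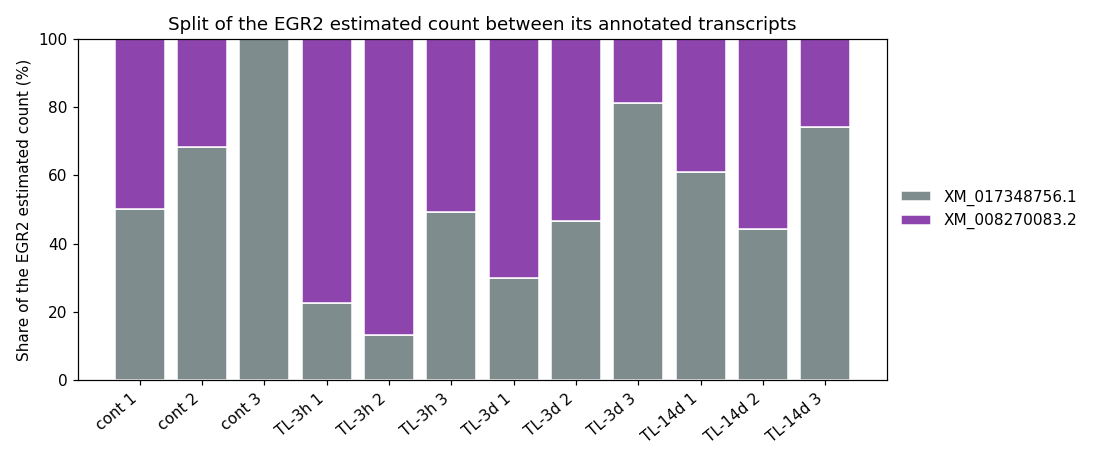
Share of the EGR2 estimated count (vertical axis, percent) given to each of its 2 annotated transcripts in each of the 12 libraries. The purple part is the transcript with the downstream start, which takes 50.7% to 86.8% in TL-3h and at most 49.9% in cont.

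For NR4A1, 1 of 3 annotated transcripts took at least 93.6% of the count in every library. Another took 1.01% to 1.55% in TL-3h and was listed at 0% in the controls, which held 244, 246 and 410 NR4A1 counts. The share of that transcript was 0%, 6.39% and 4.97% in TL-3d and 6.05%, 4.66% and 0% in TL-14d. For NR4A3, 1 of 4 transcripts took 66.9% to 76.7% in TL-3h, 76.2% to 90.5% in TL-3d and 73.1% to 100% in the controls. Another NR4A3 transcript took 5.15% to 8.39% in TL-3h and 0% to 8.61% in the controls, and was listed at 0% in all libraries of TL-3d and TL-14d. The main MYC transcript took 80.0% to 84.3% in TL-3h and 79.2% to 83.4% in the controls. The TL-3h and control shares of the main transcript thus overlapped for MYC and NR4A3, while a MYC transcript of 1952 bases took 2.25% to 4.67% in TL-3h and 6.08% to 6.77% in the controls. NR4A2 has 8 annotated transcripts. Its main transcript took 68.2% to 73.0% in TL-3h and 64.5% to 79.0% in the controls, and a transcript of 3336 bases took 9.72% to 11.7% in TL-3h and 2.44% to 5.01% in the controls. In all, 2 of the 8 had TL-3h shares above all control shares and 1 below. How often such orders arise over all transcripts was not counted. EGR1, EGR3, IER2 and IER3 have 1 annotated transcript each.

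Relatives of the members were next read from a fixed list of 4. MYCL, a MYC paralog, was 39.8 ± 12.6 CPM (SD, n = 3) in the controls and 28.0 ± 9.64 CPM in TL-3h, with a log2 fold change of -0.50 (SE 0.28, edgeR q = 0.17). MYCN was 0.405 ± 0.230 CPM and 0.339 ± 0.080 CPM (log2 fold change -0.26, SE 0.70, q = 0.792). With all libraries and TMM factors neither was called at any time, and DESeq2 also called 0. At an unadjusted p under 0.05 in edgeR there were 0 at 3 hours, 0 at 3 days and 1 at 14 days, the last beside 10.4% of all genes. With library size only MYCL was called lower at 3 hours (-1.02, q = 0.0166), beside 38.2% of all genes. Of the 2 genes, 1 was called lower at 3 hours without control replicate 3, beside 23.1% of all genes. At 14 days 1 was called higher without TL-14d replicate 1, beside 3.51% of all genes. EGR4 did not pass the filter. It was listed at 0 in all controls and at 0.769, 0.249 and 0.256 CPM in TL-3h, and with no filter it was called higher at 3 hours (edgeR q = 0.00833).

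NAB1 and NAB2 are corepressors that bind EGR1 and EGR2, and NAB2 is itself a target of EGR factors. NAB2 was 7.55 ± 2.07 CPM in the controls and 17.7 ± 9.12 CPM in TL-3h (log2 fold change 1.23, SE 0.36, edgeR q = 0.0177). NAB1 was 216 ± 16.0 CPM and 419 ± 120 CPM (log2 fold change 0.96, SE 0.25, q = 0.0113). RXRB, a retinoid X receptor of the type that pairs with NR4A1 and NR4A2, was 49.5 ± 3.70 CPM and 33.9 ± 0.749 CPM (log2 fold change -0.55, SE 0.17, q = 0.0257). Of the 3 tested genes of this list, 2 were called higher and 1 lower at 3 hours, beside 23.2% and 22.2% of all genes, with a median log2 fold change of 0.96. With library size only 0 were called higher, beside 12.7% of all genes, as in the fit without TL-3h replicate 3, beside 18.7%. Without control replicate 1, 0 were called lower, beside 16.9% of all genes. At 3 days and 14 days 0 were called by edgeR, with 1 and 0 at an unadjusted p under 0.05, beside 36.2% and 10.4% of all genes, and DESeq2 called 1 and 0, beside 30.3% and 2.49%.

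Among 14 tested genes that carry signals to immediate early promoters, 6 were higher and 2 lower at 3 hours, with a median log2 fold change of 0.41. Over all genes 23.2% were called higher and 22.2% lower. Without control replicate 3 the counts were 5 and 4, beside 22.2% and 23.1% of all genes. SRF, the serum response factor, rose from 26.4 ± 2.61 CPM to 114 ± 28.2 CPM (log2 fold change 2.10, SE 0.21, edgeR q = 7.31e-05). The ribosomal S6 kinase genes RPS6KA1 and RPS6KA3 rose by 1.54 (SE 0.31, q = 0.00281) and 1.46 (SE 0.18, q = 0.000178). RPS6KA5, which encodes the related kinase MSK1, fell from 21.8 ± 1.03 CPM to 3.55 ± 0.352 CPM, a log2 fold change of -2.62 (SE 0.14, q = 1.59e-05). The direction of these 4 genes was the same with library size only. The count with that scaling became 4 higher and 5 lower, beside 12.7% and 38.2% of all genes. That scaling moved the median of all genes at 3 hours from 0.02 to -0.47. The share of calls that were higher was then 1889 of 7563, beside 3435 of 6733 with TMM.

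MYC acts with MAX as a partner, and the MXD proteins, MXI1 and MNT compete with MYC for it. The list also held MLX, a MAX-like protein, and its partner MLXIP, which act beside the MAX pairs. Of its 9 tested genes, 2 were called higher and 4 lower at 3 hours, with a median log2 fold change of -0.36, beside 23.2% and 22.2% of all genes. With library size only the counts were 2 and 6, beside 12.7% and 38.2% of all genes. MXD1 rose from 43.9 ± 0.565 CPM to 567 ± 117 CPM (log2 fold change 3.69, SE 0.30, edgeR q = 3.48e-05). MAX rose from 55.7 ± 5.68 CPM to 128 ± 7.30 CPM (1.20, SE 0.15, q = 0.000205). MXI1 fell from 52.1 ± 17.9 CPM to 11.1 ± 0.644 CPM (-2.23, SE 0.28, q = 0.000225), and MXD4 fell from 117 ± 18.6 CPM to 38.3 ± 4.44 CPM (-1.61, SE 0.20, q = 0.000211). MXD3 and MNT were the other two called lower. At 3 days MAX, MXD1 and MXD3 were called higher and MGA lower, so that 4 of 9 were called in either direction beside 17.6% of all genes. Without control replicate 1 none of these 4 calls remained, and 3.25% of all genes were called.

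The list of nucleolar and growth genes known to be bound by MYC held 17 tested genes, of which 15 were called higher and 0 lower at 3 hours, beside 23.2% and 22.2% of all genes, with a median log2 fold change of 1.90. NOP56 and NOP58, core proteins of box C/D small nucleolar ribonucleoproteins, rose by 3.15 (SE 0.21, edgeR q = 2.45e-05) and 2.88 (SE 0.18, q = 1.93e-05). RRP9, which binds U3 small nucleolar RNA, rose from 11.6 ± 1.44 CPM to 77.1 ± 7.72 CPM (2.73, SE 0.16, q = 1.69e-05). RRS1, a ribosome assembly factor, rose from 15.0 ± 3.20 CPM to 97.8 ± 15.2 CPM (2.70, SE 0.22, q = 3.14e-05). CDK4 and CCND2, which drive the cell cycle, were the 2 not called, with log2 fold changes of 0.16 (q = 0.457) and 0.49 (q = 0.381). The count of 15 was the same in each of the 20 alternatives. By 3 days 2 of the 17 were called higher, NPM1 and CAD, beside 10.6% of all genes. Without control replicate 1, 0 were called higher, beside 2.25% of all genes, and without TL-14d replicate 1, 4 were, beside 14.4%. In all, 14 were called lower than at 3 hours, beside 19.0% of all genes.

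**Figure D5:**
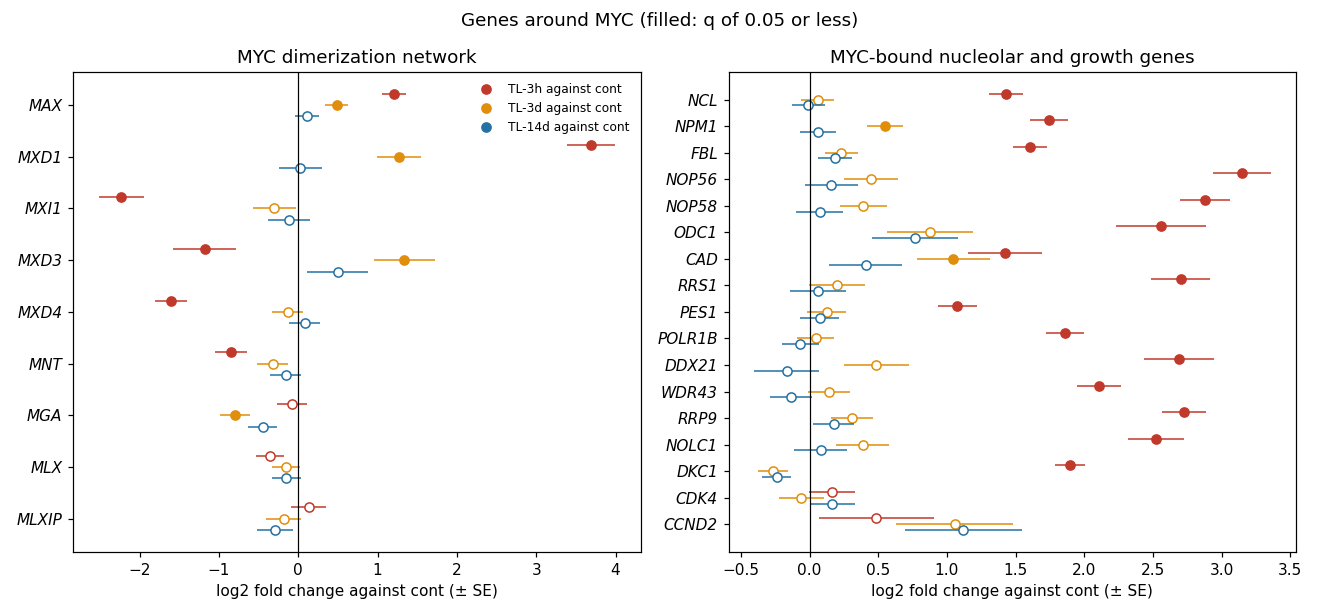
Log2 fold change against cont (horizontal axis, bars ± SE, 3 libraries per group) of the MYC dimerization network (left) and of nucleolar and growth genes bound by MYC (right) at 3 hours (red), 3 days (orange) and 14 days (blue). Filled points have a q of 0.05 or less. On the right 15 of 17 genes are filled at 3 hours, and on the left MXD1 and MAX lie right of 0 and MXI1, MXD4, MXD3 and MNT left of it.

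Among 22 tested genes of other immediate early families, 20 were called higher and 0 lower at 3 hours, beside 23.2% and 22.2% of all genes, with a median log2 fold change of 3.08. PTGS2, the inducible cyclooxygenase, rose from 2.91 ± 2.41 CPM to 365 ± 56.8 CPM (log2 fold change 6.97, SE 0.93, edgeR q = 0.000281). HBEGF, a ligand of the EGF receptor, rose by 5.67 (SE 1.06, q = 0.00188), and RGS2, a regulator of G protein signalling, by 4.81 (SE 1.16, q = 0.00712). FOSB, an AP-1 subunit, rose from 3.61 ± 0.921 CPM to 98.2 ± 36.1 CPM (4.76, SE 0.54, q = 0.000128). JUN and PER1 were the 2 not called, with log2 fold changes of 0.39 (q = 0.248) and 0.79 (q = 0.226). With library size only the value of JUN was -0.13 (q = 0.732). Of the 22, 3 were called higher at 3 days, beside 10.6% of all genes. The count was 0 without control replicate 1, beside 2.25% of all genes, and 6 without TL-14d replicate 2, beside 11.6%. DESeq2 called 8 higher and 2 lower, beside 16.3% and 14.0% of all genes. At 3 days 13 were called lower than at 3 hours, beside 19.0% of all genes. The count at 3 hours ranged from 14, without TL-3h replicate 1 and beside 19.3% of all genes, to 20.

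At 14 days edgeR with all libraries called 0 genes of these lists. At an unadjusted p under 0.05 there were 1 of the 9 genes of the MYC network, 4 of the 14 signal genes, 3 of the 17 nucleolar and growth genes and 5 of the 22 other immediate early genes, beside 10.4% of all genes. DESeq2 called 0, 1, 0 and 1 of them, beside 2.49% of all genes. Without TL-14d replicate 1 edgeR called 0, 1, 1 and 2 of them, each of these higher, beside 3.51% of all genes.

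The genes whose log2 CPM ran most nearly parallel to each member over the 12 libraries were found among the 13244 candidate genes that averaged 1 CPM or more. The libraries share their groups and depth, so the correlation is a description. Nearest to EGR1 were BTG2 (Pearson r = 0.965) and FOS (r = 0.961), both immediate early genes. Nearest to EGR2 were CCL4 (r = 0.958), a chemokine, which was 0.719 CPM on average in the controls and 52.8 CPM in TL-3h, and PFDN4 (r = 0.948), a prefoldin subunit. Nearest to MYC were the unnamed gene LOC100343299 (r = 0.987) and STAT3 (r = 0.979), which transmits cytokine signals.

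For the NR4A genes and EGR3 the nearest genes changed less in fold than the member itself. For NR4A1 they were GTF2A2 (r = 0.984), a general transcription factor subunit that was 12.1 CPM in the controls and 23.7 CPM in TL-3h on average, and SELK (r = 0.984). For NR4A2 they were PRPF38B (r = 0.988) and ABT1 (r = 0.988), and for NR4A3 they were CERS2 (r = 0.973), a ceramide synthase, and CORO1C (r = 0.971). For EGR3 they were ADPRHL2 (r = 0.965) and DUS3L (r = 0.955). For IER3 they were LOC100348075 (r = 0.979) and KBTBD2 (r = 0.974). IER2 had the lowest likeness of the members to any other gene, with TMUB2 (r = 0.926) and SERTAD3 (r = 0.871) nearest.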

How the data were processed

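RNA of 12 rabbit conjunctiva libraries had been read as stranded 150 bp paired-end reads. The authors mapped the reads with STAR 2.6.0c to OryCun2.0, per the labels and the study's methods, and made gene and transcript values in GeneData Profiler Genome. The authors deposited estimated counts, not divided by library size, of which 23.4% per gene were fractions. The authors also deposited FPKM values, divided by transcript length and depth, which were used only for the order of genes. Reads shared by near-identical copies may be split between genes.

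Estimated counts were rounded to whole numbers and tested in edgeR 4.0.16 (R 4.3.3), a test planned for counts. The filter filterByExpr (minimum count 10, minimum total 15) kept 14835 of 20566 genes. All 12 libraries entered 1 quasi-likelihood fit with TMM factors and no covariate, and each SE is the size of the log2 fold change divided by the root of its F statistic. Groups came from the sample labels. The members and lists were chosen with earlier results of these data known. The genes named were all members and up to 4 genes per list with the largest called change at 3 hours. Also named were the 2 genes nearest each member by Pearson r of log2 CPM (prior count 2). MYCL, MYCN, EGR4, MLX, MLXIP, MXD3, MNT, MGA, JUN, PER1, CDK4, CCND2, NPM1 and CAD were named after their values were seen. So were the markers PECAM1, CDH5, VWF, KDR, TEK, MPO and LPL. Alternatives were DESeq2 1.42.0 size factors and its test, library size only, no filter, a mean of at least 1 CPM, only the 6 libraries compared, a replicate block, leaving out each library, and, added after seeing the data, leaving out control replicate 3 and TL-14d replicate 1 together. Tested on simulated data for TL-3h against cont (14835 genes, 200 changed, as many higher as lower), the fit recovered 123 with 2 false calls. Of the 100 changed by 8-fold or more it recovered 91. In the real comparison 6733 genes were called, so the simulation does not test TMM factors under a change of that breadth. The floor of 3 counts (95% confidence) covers counting error only. No pair of libraries within a group was a copy. Coordinates are 1-based in the authors' table. Sequences were not used here.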

Additional observations from a re-analysis of the deposited data

Results flagged for a closer look

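For 7 members the effect at 3 days differed from that at 3 hours, by the edgeR test of TL-3d against TL-3h itself, in which the shared control group drops out. The differences on the log2 scale were -2.84 for EGR2, -4.44 for EGR3, -3.20 for NR4A1, -2.53 for NR4A2, -3.32 for NR4A3, -2.13 for IER3 and -2.12 for MYC. In each of them all 3 TL-3d libraries lay below all 3 TL-3h libraries. EGR1 had the same order of libraries without a call (q = 0.215). With 3 libraries a group, no formal outlier test was applied to single libraries.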

How the results depend on the processing

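The 7 calls at 3 hours held in all 20 alternatives. Leaving out 1 library gave 7 to 8 members and 5280 to 7271 genes at 3 hours. At 3 days it gave 0 to 2 members and 359 (without TL-3d replicate 2) to 3778 genes (without TL-14d replicate 1), at 14 days 0 to 1 and 0 to 716 (without TL-14d replicate 1), for TL-3d against TL-3h 5 to 7 and 3954 to 6231, and for TL-14d against TL-3d 0 to 1 and 0 (without TL-3d replicate 2) to 584. DESeq2 called 4471 genes and 2 members at 3 days, 367 and 1 at 14 days, and 1850 and 1 for TL-14d against TL-3d. With only the 6 libraries compared, 2 members were called at 3 days, beside 22.6% of all genes, and 15 genes for TL-14d against TL-3d. Without control replicate 3 and TL-14d replicate 1, 3 members (IER3, MYC and NR4A3) were called at 3 days, beside 25.6% of all genes, and 999 genes were called at 14 days. The cause of these moves was not tested beyond the fewer libraries of each fit.

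Direction turned only in differences that were not called. Leaving out 1 library, the log2 fold change at 3 days ranged from -0.073 to 0.45 for NR4A1 and from -0.0409 to 0.46 for IER2. At 14 days it ranged from -0.60 to 0.84 for EGR1, -1.04 to 1.33 for NR4A3, -0.11 to 0.66 for IER2 and -0.70 to 0.55 for MYC. For TL-14d against TL-3d it ranged from -1.38 to 0.0585 for EGR1, -0.95 to 1.75 for EGR2, -0.14 to 0.30 for NR4A1, -0.14 to 0.19 for NR4A2 and -0.36 to 0.41 for IER2. Without control replicate 3 and TL-14d replicate 1 together it was -0.0411 for IER2 at 3 days, and at 14 days -1.10 for EGR1, -0.40 for IER2 and 0.60 for MYC, and -0.36 for IER2 against TL-3d.

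Replicate numbers recur across groups. The deviations of same-numbered libraries correlated at -0.17 to 0.50, and in no comparison was every pair above 0.1, so the numbers were not taken to pair the samples. With the number as a block, 9 members were called at 3 hours, beside 46.8% of all genes (6946, against 6733 without the block), with EGR1 at q = 0.0128 and IER2 at q = 0.0411.

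With 3 libraries a group, unequal libraries limit the values, and a library in control or TL-14d could move a fold by over 1.5 times.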
